A study of Mus musculus with 6 samples.

Results

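The genes described here are the 2 receptors of tumour necrosis factor, Tnfrsf1a (TNFR1) and Tnfrsf1b (TNFR2), the adaptors Tradd and Traf5, and the sheddase Adam17, in group 2 innate lymphoid cells (ILC2s) of the mouse lung. They were taken by gene symbol from the deposited count table, which held all 5 among its 21825 genes, and all 5 passed the filter on low counts that left 15719 genes for testing. ILC2s are tissue lymphocytes without a rearranged antigen receptor that make type 2 cytokines. The mice were BALB/c, aged 6 weeks, and had been given 3 intraperitoneal injections of 1 µg IL-33, so the cells of both groups had been activated in vivo. The sorted cells were stimulated with IL-2 (10 ng/mL) and IL-7 (10 ng/mL) over 48 h, 3 samples with PBS as the vehicle and 3 with TNFa at 40 ng/mL. Replicates are numbered 1 to 3 with PBS and 4 to 6 with TNFa. PBS replicate 2 is marked as a repeat in its label, which does not say of what step. The labels do not say whether samples of a group came from separate animals or cultures, so p-values measure only the spread between these samples.

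TNF binds both receptors. TNFR1 carries a death domain in its cytoplasmic tail through which it recruits TRADD, which in turn assembles TRAF2, RIPK1 and the ubiquitin ligases that lead to NF-kB, while TNFR2 lacks a death domain and binds TRAF proteins directly. TRAF5 is an adaptor of several receptors of the TNF receptor superfamily. ADAM17 is the membrane metalloprotease that releases soluble TNF from its membrane form and also cuts both TNF receptors from the cell surface. TNFR1 is found on most cell types, whereas TNFR2 is found mainly on haematopoietic and endothelial cells.

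The stretches of 200 bases just before the RefSeq start sites of the receptor genes are shown because TNFa acts on transcription mainly through NF-kB, and because the 2 receptor transcripts stood at very different levels (RefSeq, GRCm38.p6, gene strand, 5′ to 3′; capitals mark the GC box, GGGCGG on either strand).
Tnfrsf1b (chr4:145246871-145247070, minus strand): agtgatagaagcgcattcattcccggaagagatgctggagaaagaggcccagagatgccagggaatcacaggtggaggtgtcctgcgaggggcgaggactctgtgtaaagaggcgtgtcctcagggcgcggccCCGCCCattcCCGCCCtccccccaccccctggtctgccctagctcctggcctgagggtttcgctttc
Tnfrsf1a (chr6:125349523-125349722, plus strand): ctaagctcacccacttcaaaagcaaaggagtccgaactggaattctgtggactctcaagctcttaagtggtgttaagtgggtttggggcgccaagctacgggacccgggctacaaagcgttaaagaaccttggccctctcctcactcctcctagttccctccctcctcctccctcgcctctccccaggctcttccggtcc
The table of promoters held 4 of the 5 genes, Tradd not being among them. The 10-base kB consensus was found in 0 of the 4 stretches, and in 3.2% of 32851 promoter stretches of the same length. The GC box was found in 3 of 4 (2 copies in Tnfrsf1b, 1 each in Traf5 and Adam17, 0 in Tnfrsf1a), against 31.0% of all. The TATA box (TATAAA) and the AP-1 site (TGANTCA) were found in 0 of 4, against 10.0% and 5.5%. These are matches of letters on both strands. They do not show binding, and sites elsewhere were not searched. The Tnfrsf1a stretch lies within the gene as annotated in GENCODE, which begins further upstream, at chr6:125349362. G and C made up 63.0% of the bases for Tnfrsf1b, 56.5% for Tnfrsf1a, 67.0% for Traf5 and 70.5% for Adam17, with a median of 53.0% over all. The 3 stretches with a GC box were thus the richest in G and C of the 4. The share of GC boxes among stretches of like composition was not tested.

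Libraries held 25089415 to 32487004 counts assigned to genes. TNFa replicate 5 stood apart from the rest, with a score of 90.4 on the first principal component where the other 5 lay between -22.6 and -14.6. Values without it are given only where this is stated. All 13 ILC2 markers were detected in every library. Gata3 stood at 896 to 1033 CPM (counts as a share of the library's TMM-scaled total) with PBS and 646 to 746 with TNFa, and Il1rl1, the IL-33 receptor, at 574 to 690 and 367 to 454, while Thy1 stood at 2.32 to 4.52 over all. Of these 13 markers, 6 were lower with TNFa without overlap (Gata3, Il1rl1, Rora, Klrg1, Il17rb and Arg1) and 2 higher (Il5 and Areg). Over all tested genes, 8.35% were lower and 6.85% higher in that way. All 9 mast cell and basophil markers were detected in every library as well, with a summed level of 1322 to 1460 CPM with PBS and 1369 to 1555 with TNFa. Summed T cell markers (8 of 8 detected) lay at 90.6 to 102 CPM with PBS and 77.9 to 86.9 with TNFa, B cell markers (4 of 5 in the table, with Cd79a at 0 in TNFa replicate 5) at 20.2 to 20.6 and 13.8 to 16.5, and markers of NK cells, ILC1s and ILC3s (9 of 9, with Eomes and Klrb1c at 0 in some libraries) at 192 to 234 and 120 to 164. These 3 sums were lower in every TNFa library than in any PBS library, as were the 6 ILC2 markers and, below, Tnfrsf1b and Tradd. Singly, 1 of 8 T cell markers (Trac) and 1 of 4 B cell markers (Cd79b) were lower without overlap, and 0 were higher. The summed ILC2 markers overlapped, at 9311 to 10550 CPM with PBS and 10150 to 11180 with TNFa. The part of such cells in the differences of Tnfrsf1b and Tradd was not tested. In the list for NK cells, ILC1s and ILC3s, Gzmb (144 to 167 CPM with PBS, 78.1 to 98.7 with TNFa) and Gzma were lower without overlap. In the same list Il22 (7.58 to 10.6 and 21.2 to 45.6 CPM) and Ncr1 (0.822 to 1.77 and 2.17 to 3.71 CPM) were higher.

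The comparison asks whether TNFa alters the transcripts of its own receptors and of the proteins nearest to them. Tnfrsf1b was abundant and Tnfrsf1a scarce in every library. Tnfrsf1b and Tradd had lower values in each TNFa library than in any PBS library, with fitted changes of 0.78-fold and 0.808-fold, and Tnfrsf1a, Traf5 and Adam17 overlapped between the groups. None of the 5 passed the test: in the quasi-likelihood test of edgeR, adjusted by Benjamini-Hochberg over all 15719 genes with a threshold of 0.05, 0 of 5 were called, where 0.102% of genes were. At an unadjusted p under 0.05 there was 1 of 5, Tradd, against 8.31% of all genes, and DESeq2 called 0 of 5 after adjustment (1.57% of genes), with 2 of 5 at an unadjusted p under 0.05 (9.47% of genes). Leaving out TNFa replicate 5 also gave 0 of 5, where 67 of 16484 genes were called. Leaving out any other single library gave 0 of 5 as well, where 1 to 5 genes were called in all. Of the 5, 2 were lower without overlap and 0 higher without overlap, where 8.35% of all genes were lower and 6.85% higher in that way.

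**Figure D1:**
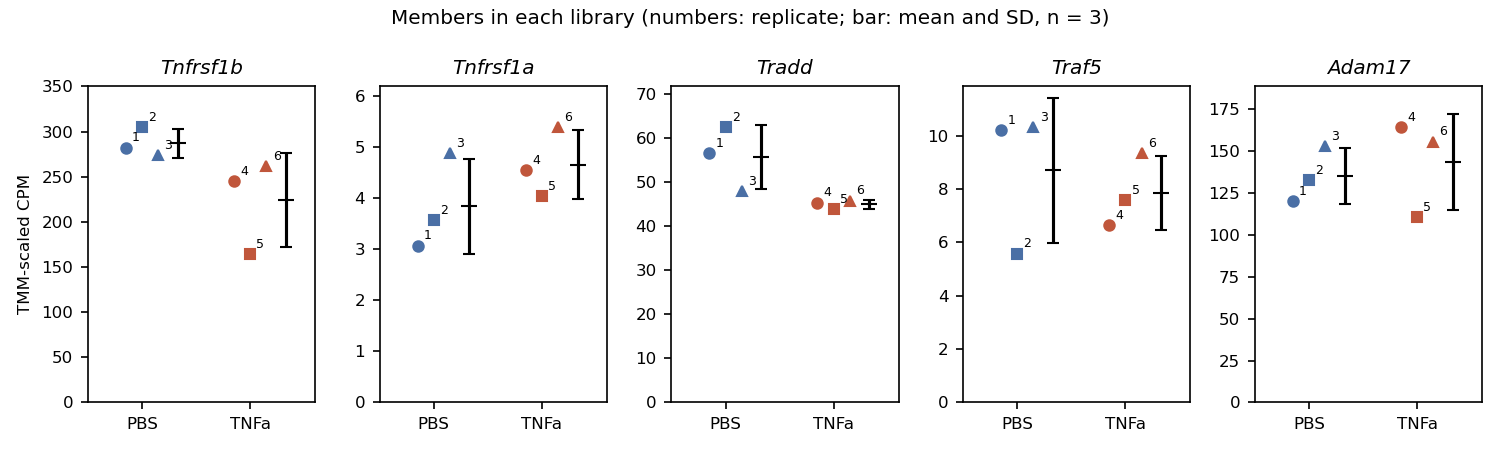
TMM-scaled CPM (y axis, from 0) of the 5 genes in each library, PBS in blue and TNFa in red, with replicate numbers beside the points and the mean and SD (n = 3) as a black bar. Tnfrsf1b and Tradd do not overlap between groups, and replicate 5 is the lowest library for Tnfrsf1b, Tradd and Adam17.

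Tnfrsf1b (ENSMUSG00000028599.10; mm10, chr4:145213463-145246870, minus strand) has 2 annotated transcripts, of which 1 codes for the receptor, and overlaps no other annotated gene. With PBS its level was 282, 305 and 274 CPM in replicates 1, 2 and 3, and with TNFa it was 245, 164 and 262 CPM in replicates 4, 5 and 6. All TNFa libraries thus lay below all PBS libraries, but PBS replicate 3 and TNFa replicate 6 were close, and replicate 5 was far below the rest. The means were 287 ± 15.9 and 224 ± 52.2 CPM (SD, n = 3 each). The log2 fold change was -0.36 ± 0.16 (SE), or 0.78-fold with a 95% interval of 0.607 to 1.00, and the adjusted p was 0.612 in edgeR. Without replicate 5 the log2 fold change was -0.18 ± 0.09 (adjusted p = 0.505 in edgeR), so that library carried much of the difference. In a bulk sample, fewer cells that carry a transcript and less of it per cell cannot be told apart.

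Tnfrsf1a (ENSMUSG00000030341.17; mm10, chr6:125349362-125362484, plus strand) has 6 annotated transcripts, 3 of them coding, and overlaps no other annotated gene. Its estimated counts were whole in all 6 libraries, from 90 (95% Poisson interval 72.4 to 111) in PBS replicate 1 to 178 (153 to 206) in TNFa replicate 6; such intervals cover counting error only. This gave 3.07, 3.57 and 4.88 CPM with PBS and 4.54, 4.04 and 5.39 CPM with TNFa. The groups overlapped, since PBS replicate 3 exceeded TNFa replicates 4 and 5. The log2 fold change was 0.28 ± 0.32 (SE; adjusted p = 0.861 in edgeR), with a 95% interval of 0.739-fold to 1.99-fold, so the interval reached nearly 2-fold upward. Structural cells and myeloid cells are known to carry TNFR1. Of the structural markers 10 of 13 were in the table, summing to 128 to 159 CPM with PBS and 150 to 211 with TNFa, with Cdh5, Kdr and Dcn not in the table. Pecam1 made up the largest part of the structural sum, at 76.7 to 145 CPM. The club cell gene Scgb1a1 reached 80.9 and 46.0 CPM in TNFa replicates 4 and 6 but at most 8.06 elsewhere. Of these 10 markers, 1 was lower with TNFa without overlap and 0 higher, against 8.35% and 6.85% of all tested genes. That marker was Epcam, at 26.2 to 29.2 CPM with PBS and 13.3 to 15.4 with TNFa. Myeloid markers (13 of 14) summed to 55.2 to 117 and 40.2 to 71.6 CPM, with Csf1r, Chil3, Fcgr1, Itgax and Siglecf at 0 in some libraries. The part of such cells, or of the mast cells and basophils whose markers are given above, in the Tnfrsf1a level was not tested.

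The balance of the 2 receptors can be read within each library, where no scaling between libraries enters. The ratio of Tnfrsf1b to Tnfrsf1a counts was 92.0, 85.3 and 56.2 with PBS and 54.0, 40.7 and 48.6 with TNFa. Every TNFa library had a lower ratio than every PBS library, although PBS replicate 3 lay much closer to the TNFa libraries than to the other PBS libraries. On the log2 scale the means were 6.25 ± 0.38 and 5.57 ± 0.21 (SD, n = 3), a difference of -0.68 (exact permutation test, two-sided, p = 0.1, the smallest that 3 against 3 libraries allow). Without replicate 5 the difference was -0.57 (exact permutation test, p = 0.2). The ratio combines a lower Tnfrsf1b and a higher Tnfrsf1a mean, neither of which passed the test alone.

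**Figure D2:**
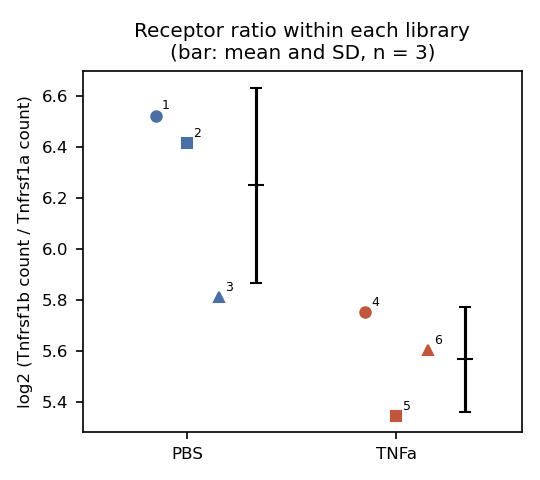
Log2 of the ratio of Tnfrsf1b to Tnfrsf1a counts (y axis, not from 0) in each library, with replicate numbers and the mean and SD (n = 3) as a bar. The TNFa libraries lie between 5.35 and 5.75 and the PBS libraries between 5.81 and 6.52.

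Genes can be compared with each other only per length. Levels were therefore also expressed as TPM, the counts per exonic kilobase of a gene as a share of their sum in the library. Tnfrsf1b stood at 193, 220 and 204 TPM with PBS and 179, 103 and 193 with TNFa. Tnfrsf1a stood at 3.09, 3.79 and 5.35 TPM with PBS and 4.88, 3.74 and 5.83 with TNFa. With PBS, the level of Tnfrsf1b per length was 52.8 ± 12.9 times that of Tnfrsf1a (SD, n = 3), and with TNFa 32.4 ± 4.53 times. The size of the PBS ratio depended on the length used: it was 44.0 with the longest transcript and 74.6 with the coding length of each gene. Among 12464 tested protein-coding genes, the PBS mean of Tnfrsf1b was at the 93.4 percentile of TPM and that of Tnfrsf1a at the 27.9 percentile, the median gene being at 14.6 TPM.

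The order of mean TPM with PBS was Tnfrsf1b (206 ± 13.3), Tradd (81.5 ± 9.68), Adam17 (51.9 ± 8.53), Traf5 (5.21 ± 1.62) and Tnfrsf1a (4.08 ± 1.16). Tnfrsf1b exceeded Tradd in all 6 libraries, by 1.83 to 2.80 times, and Adam17 exceeded Traf5 in all 6 by 7.50 to 15.8 times. The neighbours Tradd and Adam17 were not separated firmly: Tradd was higher in 6 of 6 libraries per exonic length but in 3 of 6 per longest transcript or per coding length. Traf5 and Tnfrsf1a overlapped per exonic length, with Traf5 higher in 3 of 6 libraries, while Traf5 was higher in 6 of 6 with either other length.

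**Figure D3:**
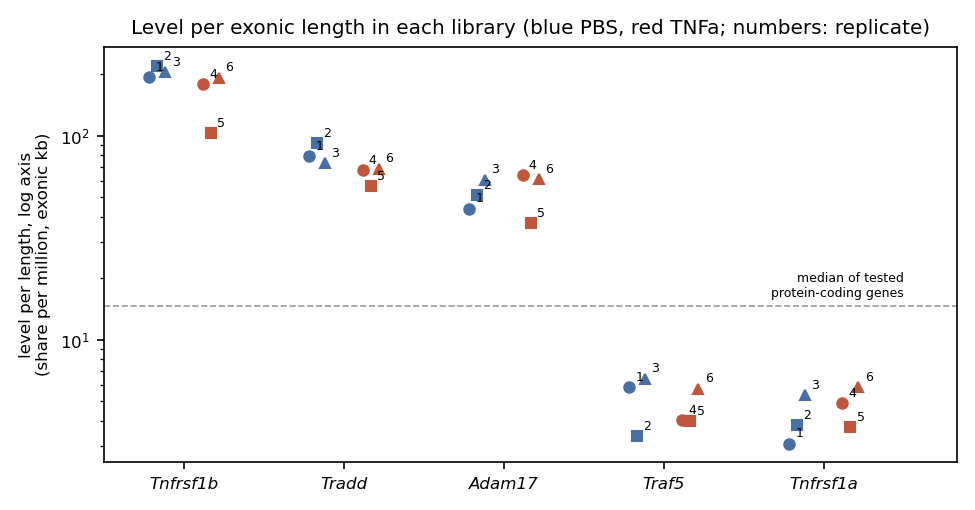
TPM per exonic length (y axis, log scale) of the 5 genes in each library, PBS in blue and TNFa in red, with replicate numbers. Tnfrsf1b, Tradd and Adam17 lie above the median of tested protein-coding genes, 14.6 (dashed line), and Traf5 and Tnfrsf1a below it.

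Tradd encodes the death-domain adaptor that binds TNFR1 (ENSMUSG00000031887.13; mm10, chr8:105258286-105264609, minus strand, 4 transcripts, no overlapping gene). Its level was 56.6, 62.5 and 48.0 CPM with PBS and 45.4, 43.8 and 45.8 CPM with TNFa. The TNFa libraries were close to each other and below all PBS libraries, PBS replicate 3 being the nearest to them. The means were 55.7 ± 7.28 and 45.0 ± 1.03 CPM (SD, n = 3). The log2 fold change was -0.31 ± 0.14 (SE), or 0.808-fold with a 95% interval of 0.656 to 0.997. The unadjusted p was 0.0472 and the adjusted p 0.592 in edgeR, so the difference did not pass. Unlike Tnfrsf1b, its log2 fold change was nearly as large without replicate 5, at -0.29 ± 0.14, and it ranged from -0.41 to -0.22 over the 6 fits that left out 1 library. The adaptor and the receptor that recruits it thus stood far apart in abundance, with Tradd at the 84.2 percentile of protein-coding genes per length and Tnfrsf1a at the 27.9 percentile.

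Traf5 encodes a TRAF adaptor (ENSMUSG00000026637.13; mm10, chr1:191997205-192092559, minus strand, 5 transcripts, 3 of them coding). Its level was 10.2, 5.58 and 10.3 CPM with PBS and 6.64, 7.59 and 9.35 CPM with TNFa. The groups overlapped completely, with the TNFa libraries lying between the lowest and the highest PBS library. Replicates of PBS differed more than the groups did, PBS replicate 2 holding 164 counts (95% Poisson interval 140 to 191) against 300 (267 to 336) and 326 (292 to 363) in replicates 1 and 3. The log2 fold change was -0.15 ± 0.30 (SE; adjusted p = 0.929 in edgeR), with a 95% interval of 0.572-fold to 1.43-fold. It was -0.39 without PBS replicate 2 and -0.01 without PBS replicate 3. None of its 6 values was whole, as can arise where the counting divides reads that match more than 1 gene. The gene overlaps the antisense gene Gm26879 by 205 exonic bases, which held at most 6.13 counts in a library, and contains Gstp-ps in an intron and Mir3473c.

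Adam17 encodes the TNF-releasing protease (ENSMUSG00000052593.16; mm10, chr12:21323509-21373632, minus strand, 10 transcripts, 3 of them coding). Its level was 120, 132 and 153 CPM with PBS and 164, 111 and 156 CPM with TNFa. TNFa replicate 5 was the lowest of the 6 libraries, while TNFa replicates 4 and 6 were the highest. The log2 fold change was 0.09 ± 0.16 (SE; adjusted p = 0.92 in edgeR), with a 95% interval of 0.829-fold to 1.36-fold. Without replicate 5 it was 0.24 ± 0.11 (unadjusted p = 0.0499, adjusted p = 0.463 in edgeR), and without replicate 4 it was -0.02, so its direction rested on single libraries. Its 3′ end overlaps that of Iah1, on the opposite strand, by 311 exonic bases, and an intron holds the snRNA gene Gm22766. Iah1 held 399 to 745 counts against 2964 to 5143 for Adam17, and whether the counting used strand is not given in the sources used here, so a small part of either value is uncertain.

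**Figure D4:**
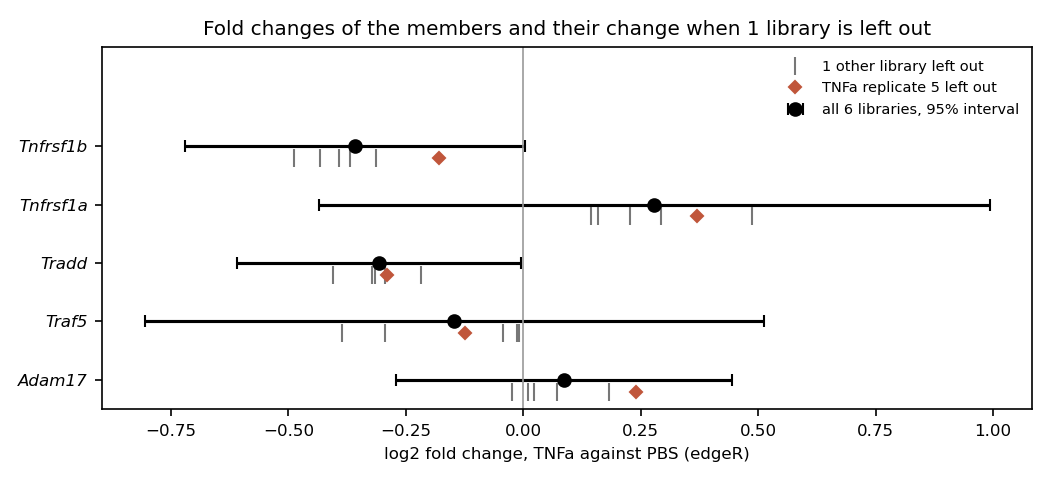
Log2 fold change of TNFa against PBS (x axis) for the 5 genes, with 95% intervals from edgeR on all 6 libraries (black), and the estimates when TNFa replicate 5 (red) or 1 other library (grey ticks) was left out. Tradd moves little without replicate 5, while Tnfrsf1b goes from -0.36 to -0.18 and Adam17 from 0.09 to 0.24.

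The partners of these proteins were examined as 6 lists. Of 25 genes that act in the TNFR1 complex, all were tested, 1 rose and 0 fell, where 0.0891% of all genes rose and 0.0127% fell, and the list's median log2 fold change was 0.05 against 0.0047 over all genes. The gene that rose was Birc3 (cIAP2), a ubiquitin ligase brought to both receptors by TRAF2. It was at 65.0, 54.9 and 68.7 CPM with PBS and 112, 110 and 130.0 CPM with TNFa, without overlap (log2 fold change 0.90 ± 0.13, SE, adjusted p = 0.043 in edgeR). The others highest in CPM, a scale that also grows with a gene's length, were Casp8, the initiator caspase recruited through FADD, at 423 ± 29.8 and 405 ± 17.0 CPM (adjusted p = 0.902), the LUBAC subunit Rbck1 at 159 ± 13.2 and 151 ± 28.5 CPM (adjusted p = 0.931), and the deubiquitinase Cyld at 112 ± 3.96 and 126 ± 21.0 CPM (adjusted p = 0.794; SD, n = 3, edgeR). At an unadjusted p under 0.05 in edgeR there were 3 of 25 (Birc3, Tab1 and Tnfaip3), against 8.31% of all genes. Without overlap, 1 was higher and 1 lower, against 6.85% and 8.35%. The lower was Tab1, named after its values were seen, at 28.4, 26.5 and 26.9 CPM with PBS and 23.2, 19.9 and 18.3 CPM with TNFa (adjusted p = 0.509 in edgeR). Tnfaip3 (A20), also named after its values were seen, was at 17.0, 18.0 and 24.9 CPM with PBS and 59.3, 24.0 and 55.3 CPM with TNFa. Its TNFa replicate 5 lay within the PBS range, and it did not pass with all libraries (adjusted p = 0.293 in edgeR). It passed in edgeR without replicate 5 (adjusted p = 0.00554), where 67 of 16484 genes did. It also passed in DESeq2 (adjusted p = 0.00775), where 1.57% of genes did.

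Of the 6 other TRAF genes, among them Traf2, which the first list also holds, 1 rose and 0 fell, with a median of 0.14. Over all genes, 0.0891% rose and 0.0127% fell. Traf1, an adaptor that binds TNFR2 together with TRAF2, was at 151, 151 and 141 CPM with PBS and 246, 254 and 232 CPM with TNFa. The groups lay far apart and each was narrow (log2 fold change 0.73 ± 0.10, SE, adjusted p = 0.0363 in edgeR). Traf2, which both receptor complexes use, stood at 73.1 ± 14.3 and 85.8 ± 5.24 CPM (adjusted p = 0.733), Traf3 at 62.8 ± 4.86 and 69.4 ± 8.37 CPM (adjusted p = 0.817) and Traf7 at 90.1 ± 9.22 and 82.4 ± 3.64 CPM (adjusted p = 0.813; SD, n = 3, edgeR). Birc3 and Traf1 both passed without TNFa replicate 5 (adjusted p = 0.00883 and 0.00797). Both missed the threshold when any one of the other 5 libraries was left out and when no filter on low counts was used (adjusted p = 0.0679 to 0.371). Their log2 fold changes stayed between 0.81 and 0.97 for Birc3 and between 0.69 and 0.76 for Traf1 over all 13 alternatives.

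Among 10 receptors listed as binding TRAF5, 0 passed in edgeR (0.102% of all genes did) and DESeq2 called 0 (1.57% of genes). In edgeR, 0 had an unadjusted p under 0.05, against 8.31% of all genes. The median log2 fold change was 0.09. Those highest in CPM were Tnfrsf18 (GITR), at 309 ± 31.5 CPM with PBS and 256 ± 33.9 with TNFa (adjusted p = 0.615), Tnfrsf8 (CD30), at 238 ± 14.8 and 249 ± 11.7 CPM (adjusted p = 0.905), Tnfrsf9 (4-1BB), at 164 ± 8.51 and 180 ± 32.6 CPM (adjusted p = 0.841), and Tnfrsf4 (OX40), at 22.3 ± 2.26 and 24.2 ± 2.12 CPM (adjusted p = 0.884; SD, n = 3, edgeR). Several receptors that can use Traf5 were thus well expressed, each overlapping between groups, while Traf5 itself was low.

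Of 14 genes for the maturation and control of ADAM17, 12 were tested, and 0 passed in edgeR, where 0.102% of all genes did. DESeq2 called 0 as well, where it called 1.57% of genes, and gave 1 of the 12 no adjusted p. In edgeR, 1 of the 12 had an unadjusted p under 0.05, against 8.31% of all genes. The median log2 fold change of the 12 was -0.15. Frmd8, which stabilises the iRhom and ADAM17 complex at the cell surface, was at 134, 148 and 134 CPM with PBS and 122, 105 and 124 CPM with TNFa (adjusted p = 0.601). It was lower without overlap, as were Mapk3 (ERK1) and Mapk14 (p38), both named after their values were seen. Mapk3 stood at 48.2 ± 4.54 and 34.0 ± 3.64 CPM (adjusted p = 0.354 in edgeR) and Mapk14 at 131 ± 4.63 and 115 ± 6.65 CPM (adjusted p = 0.695). These 3 of 12 compare with 8.35% of all genes. Furin, a protease that removes the ADAM17 prodomain, was at 1749 ± 204 and 1714 ± 419 CPM (adjusted p = 0.976), and the disulphide isomerase Pdia6 at 912 ± 29.2 and 951 ± 37.8 CPM (adjusted p = 0.896; SD, n = 3, edgeR). Timp3, the inhibitor of ADAM17, was below the filter with 20.5 counts over the 6 libraries together.

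Of 15 substrates of ADAM17, 11 were tested and 0 passed in edgeR, where 0.102% of all genes did. DESeq2 called 0 as well, where it called 1.57% of genes, and gave 1 of the 11 no adjusted p. The median log2 fold change was 0.26, against 0.0047 over all genes. That median was the value of Hbegf, at 0.26 ± 0.27 (SE). Csf1r, Vcam1, Il6ra and Tgfa were scarce, with PBS means of 1.30, 0.743, 0.952 and 0.466 CPM. At an unadjusted p under 0.05 in edgeR there were 3, against 8.31% of all genes. The same 3 were higher without overlap, against 6.85% of all genes: Tnf, Areg and Icam1. Tnf, named after its values were seen, was at 17.4, 13.1 and 13.3 CPM with PBS and 23.9, 20.7 and 19.8 CPM with TNFa (adjusted p = 0.435). Areg, the growth factor amphiregulin, was at 133, 138 and 142 CPM with PBS and 158, 183 and 171 CPM with TNFa (adjusted p = 0.435). Icam1, an adhesion molecule, was at 66.7, 71.8 and 76.7 CPM and at 86.3, 87.0 and 93.3 CPM (adjusted p = 0.473). Cd44 stood at 296 ± 21.0 and 326 ± 22.9 CPM (adjusted p = 0.773), and Notch1 stood at 55.4 ± 10.8 and 54.5 ± 8.19 CPM (adjusted p = 0.982; SD, n = 3, edgeR).

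Of 10 other death-domain receptors and adaptors and necroptosis genes, 8 were tested and 0 passed in edgeR, where 0.102% of all genes did. At an unadjusted p under 0.05 there was 1 of the 8, against 8.31% of all genes. That gene was Ripk3, the kinase of necroptosis, at 248, 214 and 227 CPM with PBS and 138, 146 and 158 CPM with TNFa. The groups lay well apart (log2 fold change -0.64 ± 0.11, SE, adjusted p = 0.0879 in edgeR). It was the 1 of the 8 that was lower without overlap, against 8.35% of all genes, and 0 were higher. DESeq2 called it (adjusted p = 4.59e-05), where 1.57% of genes were called. Without TNFa replicate 5 it passed in edgeR (adjusted p = 0.0278), where 67 of 16484 genes did. Without any other single library it did not pass in edgeR (adjusted p = 0.246 to 0.522). Its substrate Mlkl was at 125 ± 11.6 and 142 ± 25.4 CPM (adjusted p = 0.774). Among death receptors, Tnfrsf25 (DR3), which like TNFR1 signals through TRADD, was at 103 ± 14.9 and 90.0 ± 1.63 CPM (adjusted p = 0.732) and Fas at 20.9 ± 3.15 and 27.6 ± 5.10 CPM (adjusted p = 0.632; SD, n = 3, edgeR).

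**Figure D5:**
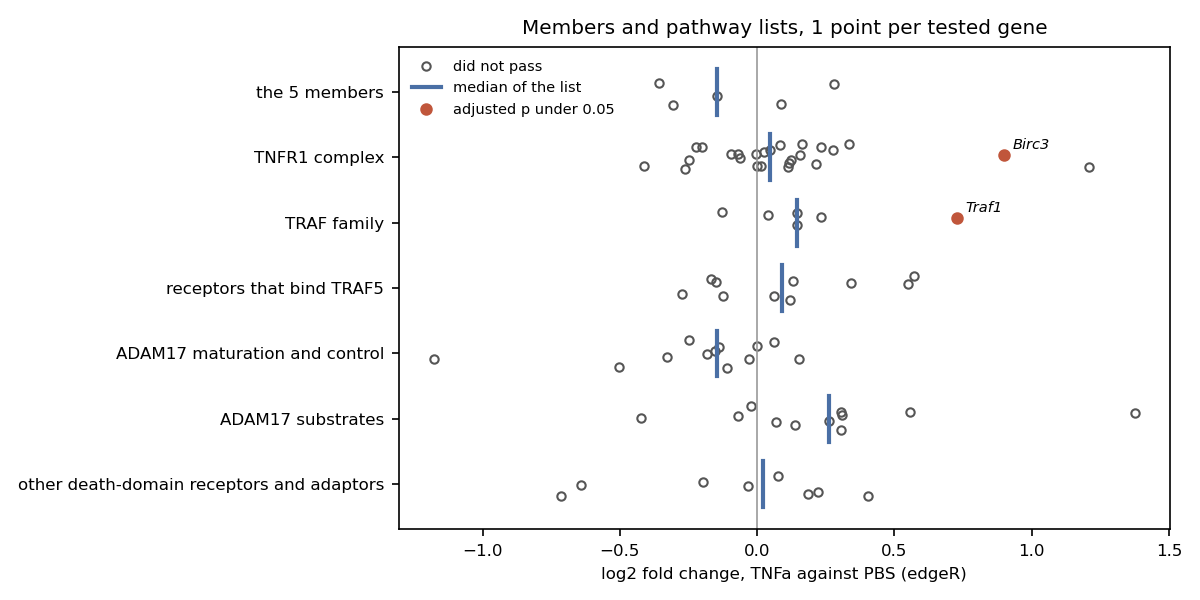
Log2 fold change of TNFa against PBS (x axis) for the 5 genes and for each tested gene of the 6 lists, 1 point per gene, with the median of each list as a blue bar. Filled red points passed at an adjusted p under 0.05 in edgeR: Birc3 and Traf1.

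The genes whose levels followed each of the 5 most closely were found by Pearson's correlation of log2 CPM over the 6 libraries, among up to 8750 genes with a mean of at least 10 CPM. For Tnfrsf1b they were Arid1b, Bpgm and Mcm2 (r = 0.998, 0.997 and 0.997, or 0.985, 0.982 and 0.989 without replicate 5), and 7.2% of genes reached an r of at least 0.9 with it. For Tradd they were Bad, Eml2 and Mrpl4 (r = 0.994, 0.992 and 0.987), where 2.19% of genes reached 0.9. For Adam17 they were Rb1, Xpo1 and Pmpca (r = 0.998, 0.995 and 0.994), where 3.1% did. For Tnfrsf1a they were Zzz3, Morc3 and Acsl4 (r = 0.992, 0.984 and 0.982), and for Traf5 Limk2, Aste1 and Cdc6 (r = 0.975, 0.975 and 0.960), where 0.754% and 0.229% did. All these points share libraries and depth, and with 6 libraries, 1 of them far from the others, such values describe these libraries only. Of the 10 pairs among the 5 genes, the 3 with r furthest from 0 over all 6 libraries were Tnfrsf1a with Adam17 (r = 0.719, or 0.911 without replicate 5), Tnfrsf1a with Tradd (-0.712, or -0.838 without it) and Tnfrsf1b with Tradd (0.694, or 0.92 without it). The order changed without replicate 5, where Tradd with Adam17 went from -0.26 to -0.859 and Tnfrsf1b with Adam17 from 0.456 to -0.765.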

How the data were processed

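The authors deposited each estimated count per gene, 1 column per library and not scaled between libraries, made with Partek's expectation-maximization quantification, per the file headers and name. CASAVA 1.8.2, STAR and mm10 are listed in the submitters' processing notes. Neither the annotation release nor the strand setting is given in these sources. Of the values, 41.7% were whole within 0.01.

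Counts were rounded and tested in edgeR 4.0.16 (R 4.3.3): filterByExpr (minimum count 10, total 15), TMM, robust quasi-likelihood test, Benjamini-Hochberg adjustment over all tested genes, threshold 0.05. SEs derive from the F statistic. TPM used exonic lengths of GENCODE M21 for 21662 genes. Scripts were tested on simulated data. Counts of replicate pairs differed beyond sampling noise (chi-square 15.5 to 114 per degree of freedom).

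Lists were described by the members past the threshold and those highest in mean CPM, up to 4 names each, and for each of the 5 genes the 3 most similar patterns; 1 gene that this rule names is not reported here. Members and lists were chosen with earlier results of these data known. Alternatives were DESeq2 1.42.0, other scalings, filters and lengths, unrounded counts, each library left out and, chosen after seeing the data, removal of a length trend.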

Additional observations from a re-analysis of the deposited data

How the results depend on the processing

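Over all genes, 16 passed, against 3 with no filter on low counts, 25 with a filter at a mean of 5 CPM, 218 in DESeq2, and 1 to 67 when 1 library was left out (67 without TNFa replicate 5, 38 higher and 29 lower; fewer libraries also change the power of the test). None of Tnfrsf1a, Tnfrsf1b, Tradd, Traf5 and Adam17 passed under any of the 13 alternatives (12 for Tnfrsf1a, which the filter at 5 CPM removed), with adjusted p from 0.447 to 0.998. Their directions were kept too, except for Adam17, which had a log2 fold change of -0.0246 without TNFa replicate 4 and otherwise 0.01 to 0.24. Left-out libraries moved Tnfrsf1b between -0.49 and -0.18, Tradd between -0.41 and -0.22, Traf5 between -0.39 and -0.01 and Tnfrsf1a between 0.14 and 0.49. The ratio of Tnfrsf1b to Tnfrsf1a stayed lower with TNFa under all 7 alternatives (log2 difference -0.90 to -0.55). Its exact permutation p was 0.2 when any 1 TNFa library was left out and 0.1 in the other alternatives. Per coding length the PBS ratio was 74.6.

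Of 23 named list genes, 16 changed neither call nor direction. Notch1 turned to 0.00586 with upper-quartile scaling. With 1 library left out, the log2 fold change ranged from -0.132 to 0.143 for Notch1, from -0.158 to 0.158 for Furin, from -0.189 to 0.0706 for Rbck1 and from -0.00050 to 0.261 for Tnfrsf9; the cause was not tested. Ripk3 passed in DESeq2, with the 5 CPM filter and without TNFa replicate 5. No paired analysis was possible because the groups share no replicate numbers. For Traf5 and Tnfrsf1a, libraries of 1 group differed beyond their counting intervals, so depth alone does not set their precision.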
